A study of Mus musculus with 6 samples.

Results

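The glucocorticoid receptor gene Nr3c1 and 7 genes that glucocorticoids, nutrient stress or related signals are known to induce were followed in follicular B cells with and without myosin IIa. The other 7 are Tsc22d3, Ddit4, Fkbp5, Txnip, Sgk1, Hsd11b1 and Il7r. They were looked up by gene symbol in the authors' deposited comparison of the genotypes, and all 8 were found, in 14 of the 24973 entries that were used. These entries carry 20433 gene names. The list was chosen by a reading of the same genotype comparison, whose FPKM values were known at the time, so the values of the 8 genes are a description and support nothing by their count or direction.

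The cells came from C57BL/6 mice that carry CD23Cre together with a floxed Myh9 gene, which encodes the myosin IIa heavy chain. The control group was CD23Cre+Myh9wt/fl, which keeps 1 intact allele and is therefore haploinsufficient rather than wild-type, and the other group was CD23Cre+Myh9fl/fl, with 3 samples of each genotype and 6 in all. Both groups carry the Cre transgene, which is driven by the CD23 promoter and acts from the transitional stage of B cell development onward. Mature B cells positive for CD23 and low for CD21 were sorted by flow cytometry, and the study's methods state that young adult mice of both sexes were used for ex vivo work, without giving the age or sex behind each of these samples. The table lists each gene as 1 or more entries, sets of its transcripts that encode the same protein, and each entry has 1 FPKM value per genotype, pooled by the authors over the 3 samples. FPKM is the number of fragments scaled to the length of the transcript and to the mapped fragments of the library, so levels can be set side by side between genes. With 1 pooled value per genotype no spread between mice can be given and no test was possible, so no difference below has a replicate check. Depth per sample is unknown.

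Glucocorticoids enter the cell and bind the receptor, which the HSP90 chaperone cycle has brought into a ligand-binding shape. The bound receptor moves to the nucleus, binds DNA at paired short repeats called glucocorticoid response elements and raises or lowers transcription through coregulators. In lymphocytes the hormone is known for restraining activation, altering homing and, at high doses, killing immature cells. Several of its targets also respond to other signals. Ddit4 responds to energy and amino acid stress, Txnip to glucose, and Il7r and Txnip to the FOXO transcription factors.

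Levels are given as FPKM summed over the entries of a gene. Differences are log2 ratios, fl/fl over wt/fl, with 1 added to each FPKM, which makes the ratio of low genes smaller. A gene was called lower or higher where that ratio reached 1.5-fold, and genes whose mean over the genotypes reached 1 FPKM were compared (9866 genes, all 8 of the listed genes among them). Of the compared genes, 1.53% were called lower and 0.791% were called higher in fl/fl. Their median log2 ratio was 0.0026, and 49.5% of them had a ratio below 0. Of the 8 listed genes 2 were called lower, Tsc22d3 and Ddit4, and 0 were called higher. Their median log2 ratio was -0.32, with 6 below 0 and 2 above. Myh9 RNA, taken over the whole gene, was at 50.6 FPKM in wt/fl against 21.1 in fl/fl, a log2 ratio of -1.22. The floxed exon was not measured apart from the rest of the gene, so this value does not check the excision itself. The paper examined the deletion by mRNA of that exon and by myosin IIa protein. B cell markers were at high levels in both genotypes, for example Cd79a at 1098 and 1115 FPKM in wt/fl and fl/fl. Of 13 B cell markers, 0 were called in either direction. In pooled bulk RNA, fewer cells of a type and less RNA per cell cannot be told apart.

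**Figure D1:**
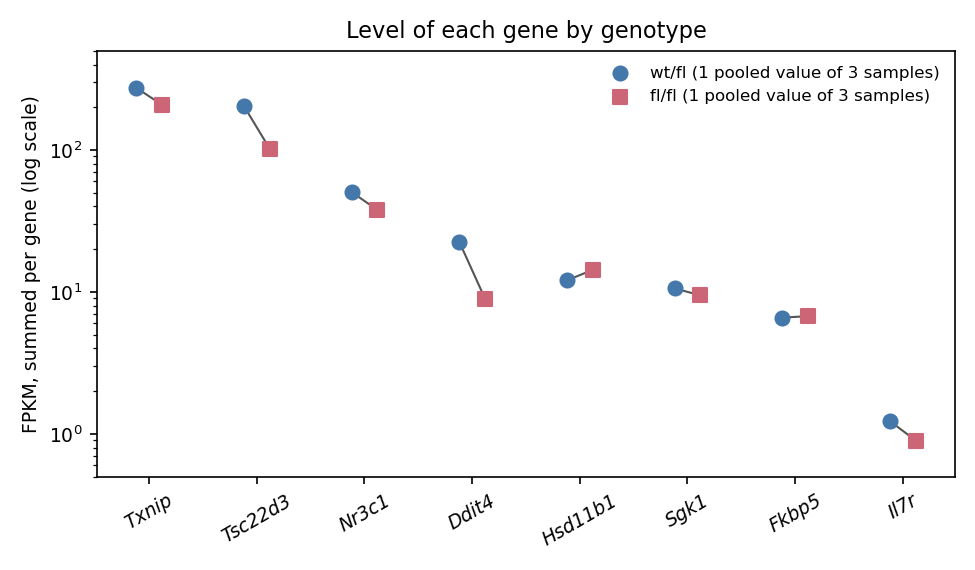
FPKM summed per gene (log axis) of the 8 genes in wt/fl (circles) and fl/fl (squares), each point 1 pooled value of 3 samples without an error. Txnip and Tsc22d3 lie above 100 FPKM in both genotypes, Ddit4 drops from 22.6 to 8.95 FPKM, and Fkbp5 and Hsd11b1 are slightly higher in fl/fl.

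The stretches upstream of 4 start sites are shown first because they differ in the letters that the receptor binds and because their genes differ in the data described next. Each is the 250 bases before a RefSeq start site on build GRCm38.p6, read 5′ to 3′ on the gene's strand, with matches to the glucocorticoid response element in capitals. The letters searched were an arm of the element, AGAACA or its reverse complement TGTTCT, the core ACANNNTGT, and the full element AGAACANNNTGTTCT, on both strands, together with a forkhead box O site, GTAAACA, and a pair of heat shock element units, GAANNTTC, which have no marking of their own. The core and the arms lie within the full element and so overlap it. RefSeq windows were found for 7 of the 8 genes, 14 windows in all.

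Sgk1, chr10:21993640-21993889, plus strand: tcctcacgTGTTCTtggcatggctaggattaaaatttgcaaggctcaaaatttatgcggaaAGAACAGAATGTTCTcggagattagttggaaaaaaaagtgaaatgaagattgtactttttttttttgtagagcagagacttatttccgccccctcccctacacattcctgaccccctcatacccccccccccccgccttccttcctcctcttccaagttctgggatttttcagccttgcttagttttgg
Tsc22d3, chrX:140600523-140600772, minus strand: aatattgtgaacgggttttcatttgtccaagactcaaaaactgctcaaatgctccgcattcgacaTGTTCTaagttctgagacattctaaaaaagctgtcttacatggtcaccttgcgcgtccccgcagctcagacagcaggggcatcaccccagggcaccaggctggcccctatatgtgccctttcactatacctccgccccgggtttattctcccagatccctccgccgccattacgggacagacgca
Txnip, chr3:96557707-96557956, plus strand: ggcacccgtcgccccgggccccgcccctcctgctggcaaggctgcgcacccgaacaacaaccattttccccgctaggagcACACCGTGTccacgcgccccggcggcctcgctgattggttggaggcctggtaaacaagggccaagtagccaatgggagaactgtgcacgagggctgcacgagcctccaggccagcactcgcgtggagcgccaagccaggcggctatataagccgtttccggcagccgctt
Ddit4, chr10:59951771-59952020, minus strand: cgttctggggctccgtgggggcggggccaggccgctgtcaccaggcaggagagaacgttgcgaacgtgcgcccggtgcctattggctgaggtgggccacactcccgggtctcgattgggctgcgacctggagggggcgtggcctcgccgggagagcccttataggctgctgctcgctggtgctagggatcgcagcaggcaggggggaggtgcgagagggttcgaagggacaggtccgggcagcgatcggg

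The Sgk1 stretch holds the full element, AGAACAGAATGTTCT, at chr10:21993701-21993715, which starts 189 bases before that start site. In the GENCODE M21 annotation the position overlaps 0 exons of Sgk1 and lies inside 3 of its 5 basic transcripts, which start further upstream, and before the start of the other 2. A match to the heat shock pair, GAATGTTC, lies inside this element, and 7.86% of all windows hold such a match, 1 other window of Sgk1 among them. The stretch also holds a further arm, and the other 5 windows of Sgk1 hold single arms, the core or no match to the glucocorticoid letters. Only 3 of the 32851 windows of all genes hold the full element in this spelling (0.00913%). The Tsc22d3 stretch holds a single arm, which 19.0% of all windows hold, and the other 2 windows of Tsc22d3 hold 0 matches. The Txnip stretch holds the core, in the letters ACACCGTGT, which 6.85% of all windows hold. It also holds GTAAACA, found in 3.65% of all windows on either strand. Hsd11b1 has GTAAACA in its window as well, and the windows of Fkbp5 and Il7r hold 0 matches. The Ddit4 stretch holds 0 matches to any of these letters. A match says only that the letters are there, and elements outside these windows were not searched.

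The receptor gene Nr3c1 (chromosome 18 from 39570198 to 39646899, a single entry) was at 50.6 FPKM in wt/fl against 37.8 in fl/fl. The fl/fl level was 74.6% of the wt/fl level and the log2 ratio was -0.41, which did not reach 1.5-fold. Only 3.37% of the compared genes had a lower ratio. Positions of genes here and below are those in the authors' file, taken as mouse build mm9. The related mineralocorticoid receptor gene Nr3c2, whose product also binds corticosterone, was low, at 1.69 FPKM in wt/fl against 0.896 in fl/fl. Nr3c1 was thus the main receptor transcript of this pair in both genotypes, 29.9 times the Nr3c2 level in wt/fl and 42.1 times in fl/fl. The progesterone receptor gene Pgr was at 0.0141 FPKM in wt/fl and listed at 0 in fl/fl.

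Receptor folding machinery was lower in fl/fl in part of its members. Of 21 compared genes of the chaperone cycle 8 were called lower and 0 higher, with a median log2 ratio of -0.53 beside 0.0026 over all compared genes and 1.53% of all compared genes called lower. The list was written with earlier results of these data known, so these figures are a description. The abundant chaperones carried most of the level: Hspa8, a constitutive HSP70, was at 1574 FPKM in wt/fl against 788 in fl/fl. Hsp90aa1, the inducible HSP90, was at 387 and 208 FPKM. Stip1, the adaptor that passes the receptor from HSP70 to HSP90, was at 54.3 FPKM in wt/fl against 29.0 in fl/fl, a log2 ratio of -0.88. Dnaja1, an HSP40 that loads HSP70, was at 130 and 70.9 FPKM. Ahsa1, an activator of the HSP90 ATPase (95.2 and 57.8 FPKM), St13, an HSP70 partner (110 and 69.9 FPKM), Fkbp4 (81.6 and 53.0 FPKM) and Hspa1b (3.76 and 2.04 FPKM) made up the rest of the 8. Hspa1b has a near-identical copy, Hspa1a, so fragments could have been split between them. Others of the same cycle lay close to 0. The HSP90 kinase adaptor Cdc37 was at 34.9 and 33.1 FPKM, the phosphatase gene Ppp5c at 29.1 and 29.5 FPKM, the ubiquitin ligase gene Stub1 at 47.7 and 47.7 FPKM and the importin gene Kpnb1 at 43.7 and 46.3 FPKM. Hsp90ab1 (936 and 647 FPKM) and the p23 gene Ptges3 (99.1 and 68.1 FPKM) had log2 ratios of -0.53 each and were not called.

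The coregulators through which the receptor acts were at nearly the same level in both genotypes. Of 24 compared coregulator genes 0 were called in either direction, and their log2 ratios ran from -0.16 to 0.26 with a median of 0.036. Cbx3 was the most abundant (146 and 153 FPKM), followed by Hdac1, a histone deacetylase gene (102 and 115 FPKM), and Arid1a, a chromatin remodeler subunit gene (87.7 and 85.5 FPKM). The receptor coactivator gene Ncoa1 was at 19.3 and 23.3 FPKM, and the corepressor gene Ncor1 at 64.8 and 66.2 FPKM.

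Hsd11b1 (chromosome 1 from 195047834 to 195090239) encodes the enzyme that regenerates active glucocorticoid inside the cell. It was at 12.1 FPKM in wt/fl against 14.3 in fl/fl, a log2 ratio of 0.23 and the highest of the 8 genes. Of the compared genes 90.3% had a lower ratio. H6pd, which supplies the cofactor of this enzyme, was at 5.10 FPKM in wt/fl against 4.63 in fl/fl. The opposing, inactivating enzyme gene Hsd11b2 was at 1.13 and 0.706 FPKM. Of 13 genes of glucocorticoid metabolism and transport only 4 were compared, Hsd11b1 among them, and 0 of these were called. The most abundant of them was Tspo, which encodes a mitochondrial cholesterol-binding protein (57.7 and 55.7 FPKM). Hsd11b1 is also made by stromal cells and macrophages. Of 12 other stromal and endothelial genes only Pecam1, which leukocytes also express, was compared (71.0 and 80.0 FPKM), and Col3a1, Pdgfra and Ccl19 were listed at 0 in both genotypes. Of 7 other compared macrophage genes 1 was called higher, the heme oxygenase gene Hmox1 (1.51 and 2.98 FPKM, log2 ratio 0.66), and 0 were called lower. Over all compared genes 0.791% were called higher and 1.53% lower. Without Hsd11b1, these 7 genes summed to 18.0 FPKM in wt/fl against 18.8 in fl/fl. The most abundant was Cd68 (7.41 and 6.10 FPKM), the complement genes C1qb (1.61 and 2.39 FPKM) and C1qc (1.60 and 2.04 FPKM) had log2 ratios of 0.38 and 0.22, and Csf1r was at 1.42 and 1.39 FPKM. The part of macrophages in the Hsd11b1 value was not tested.

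Tsc22d3 (X chromosome from 137074067 to 137135061) encodes GILZ, a leucine zipper protein that mediates part of the anti-inflammatory action of glucocorticoids. It was at 204 FPKM in wt/fl against 102 in fl/fl, 49.9% of the wt/fl level, with a log2 ratio of -0.996. The gene was thus called lower, and 0.426% of the compared genes had a lower ratio. It has 2 entries. The main one, P21961, went from 197 to 97.9 FPKM and the minor one, P14107, from 7.09 to 4.08 FPKM, so that the main entry made up 96.5% of the gene in wt/fl and 96.0% in fl/fl. The files do not pair these entries with named isoforms. The other TSC22 domain genes were called in neither direction: Tsc22d1 was at 5.12 and 3.67 FPKM, Tsc22d2 at 10.5 and 9.05 FPKM and Tsc22d4 at 37.1 and 33.1 FPKM in wt/fl and fl/fl.

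Ddit4 (chromosome 10 from 59412422 to 59414518, a single entry) encodes REDD1, which restrains the growth kinase mTORC1. It was at 22.6 FPKM in wt/fl against 8.95 in fl/fl, 39.6% of the wt/fl level, a log2 ratio of -1.25. This was the lowest ratio of the 8 genes, and 0.243% of the compared genes had a lower one. Of 20 other compared genes of mTORC1 control and the ATF4 stress response, 0 were called in either direction and the median log2 ratio was -0.0026. Atf4, a stress-induced activator of Ddit4, was at 144 FPKM in both genotypes. The hypoxia factor gene Hif1a was at 26.8 and 24.9 FPKM, the mTOR gene Mtor at 12.3 and 12.2 FPKM and the tuberous sclerosis gene Tsc2 at 12.2 and 12.3 FPKM. Sesn1, another inhibitor of mTORC1, was at 105 and 82.8 FPKM, a log2 ratio of -0.35, and the translation repressor gene Eif4ebp2 at 79.0 and 71.4 FPKM.

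**Figure D2:**
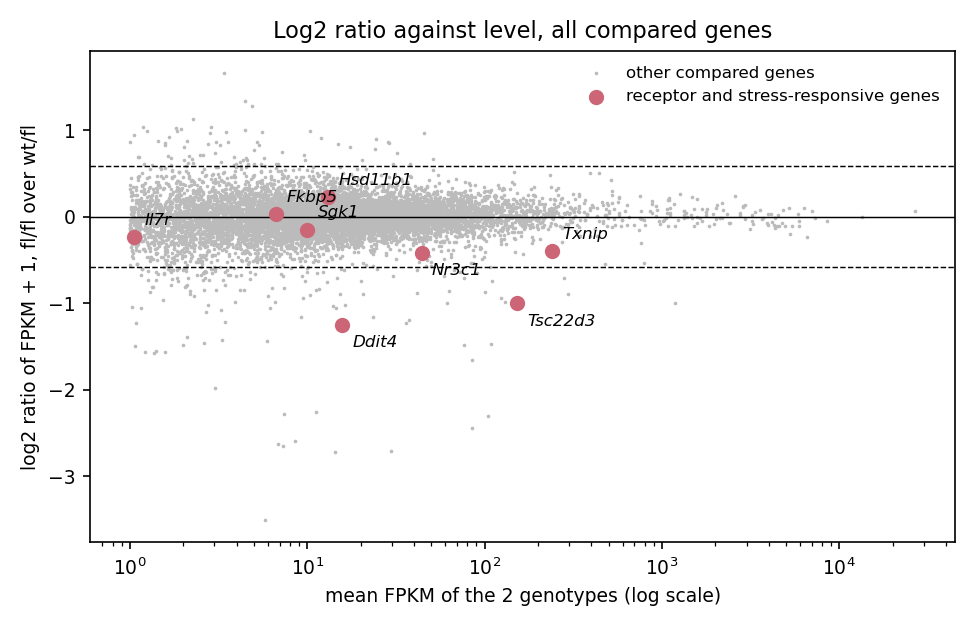
Log2 ratio of FPKM + 1 (fl/fl over wt/fl) against the mean FPKM of the genotypes (log axis) for all 9866 compared genes (grey) and the 8 listed genes (red, named), with dashed lines at 1.5-fold. Ddit4 at -1.25 and Tsc22d3 at -0.996 lie below the lower line, Nr3c1 at -0.41 and Txnip at -0.40 between it and 0.

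The spread of log2 ratios over all compared genes narrows with level. From 5 to 20 FPKM (3965 genes, where Ddit4, Fkbp5, Sgk1 and Hsd11b1 lie), the 5th to 95th percentile ran from -0.32 to 0.31. From 20 to 100 FPKM (3146 genes), where Nr3c1 lies, it ran from -0.24 to 0.25, and at 100 FPKM or more (618 genes, with Tsc22d3 and Txnip) from -0.23 to 0.25. From 1 to 5 FPKM (2137 genes, with Il7r) it ran from -0.52 to 0.44. Ddit4, Tsc22d3, Nr3c1 and Txnip lay below these ranges and Fkbp5, Sgk1, Hsd11b1 and Il7r inside them.

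Fkbp5 (chromosome 17 from 28536039 to 28623057, a single entry) encodes the HSP90 partner FKBP51, which lowers the receptor's affinity for hormone and is itself a classical receptor target. It was at 6.59 FPKM in wt/fl against 6.75 in fl/fl, a log2 ratio of 0.03. Fkbp4 encodes FKBP52, which competes with FKBP51 for HSP90 and favors receptor activity, and it was called lower, with a log2 ratio of -0.61. Fkbp11 (7.17 and 4.48 FPKM) lay just short of 1.5-fold at -0.58 and reached it with a pseudocount of 0.1 or 0.5, so that 2 FKBP genes were then called lower. The level of Fkbp4 was 12.4 times that of Fkbp5 in wt/fl and 7.86 times in fl/fl. Of 8 other compared FKBP genes 1 was called lower, Fkbp4, and 1 higher, beside 1.53% and 0.791% of all compared genes. The 1 called higher was Fkbp7, a prolyl isomerase gene of the endoplasmic reticulum, at 2.02 and 4.05 FPKM. The abundant Fkbp3 was at 104 and 113 FPKM and Fkbp2 at 75.7 and 64.3 FPKM.

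Txnip (chromosome 3 from 96359690 to 96370724) encodes an alpha-arrestin that binds thioredoxin and limits glucose uptake, and it was the most abundant of the 8 genes. It was at 274 FPKM in wt/fl against 208 in fl/fl, 75.8% of the wt/fl level, with a log2 ratio of -0.40 that did not reach 1.5-fold. Of the compared genes 3.54% had a lower ratio. Its 2 entries were of similar size. Entry P18452 was at 140 FPKM in wt/fl against 116 in fl/fl, and entry P7602 at 135 and 91.5 FPKM, log2 ratios of -0.26 and -0.55. Of 13 other compared genes of the alpha-arrestin and thioredoxin system 0 were called and the median was 0.076. Of these 13 genes 10 had a ratio above 0 and 3 below, where 49.5% of all compared genes were below 0. Its relatives Arrdc2 (5.58 and 7.29 FPKM) and Arrdc3 (12.2 and 14.0 FPKM) and its partner Txn1 (56.1 and 67.6 FPKM) each had a ratio above 0. The peroxiredoxin gene Prdx1 was at 149 and 153 FPKM and the glucose sensor gene Mlxip at 45.7 and 39.2 FPKM.

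Sgk1 (chromosome 10 from 21601989 to 21719708) encodes a serine/threonine kinase that corticosteroids induce in many tissues. Summed over its 5 entries it was at 10.6 FPKM in wt/fl against 9.45 in fl/fl, a log2 ratio of -0.15. The entries differed among themselves. Entry P20423, the largest, was at 7.66 FPKM in wt/fl against 6.80 in fl/fl, 72.3% and 72.0% of the gene. Entry P12221 was at 2.93 and 0.917 FPKM, 27.7% of the gene in wt/fl and 9.70% in fl/fl. Entry P644 was listed at 0 in wt/fl and at 1.504 FPKM in fl/fl, where it made up 15.9% of the gene. The other 2 entries were listed at 0 in wt/fl and at 0.0817 and 0.145 FPKM in fl/fl. The share of P12221 moved by 18.0 percentage points between the genotypes, and 13.9% of the 1767 compared genes with several entries had an entry whose share moved at least as much, against a median of 5.85 points. FPKM of entries that share exons is an estimate of how fragments divide among them, and its error is not known here. Sgk3, the related kinase gene, was at 17.3 and 13.9 FPKM, and Sgk2 was at or below 0.0120 FPKM. Of 11 other compared genes listed as SGK kinases and their partners 0 were called. Among them were Pdpk1, the gene of the kinase that activates SGK1 (33.1 and 31.4 FPKM), and Ndrg3 (21.3 and 23.3 FPKM). The 11 also include Pdk1 (10.1 and 12.6 FPKM), which is not Pdpk1 and not an SGK partner.

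**Figure D3:**
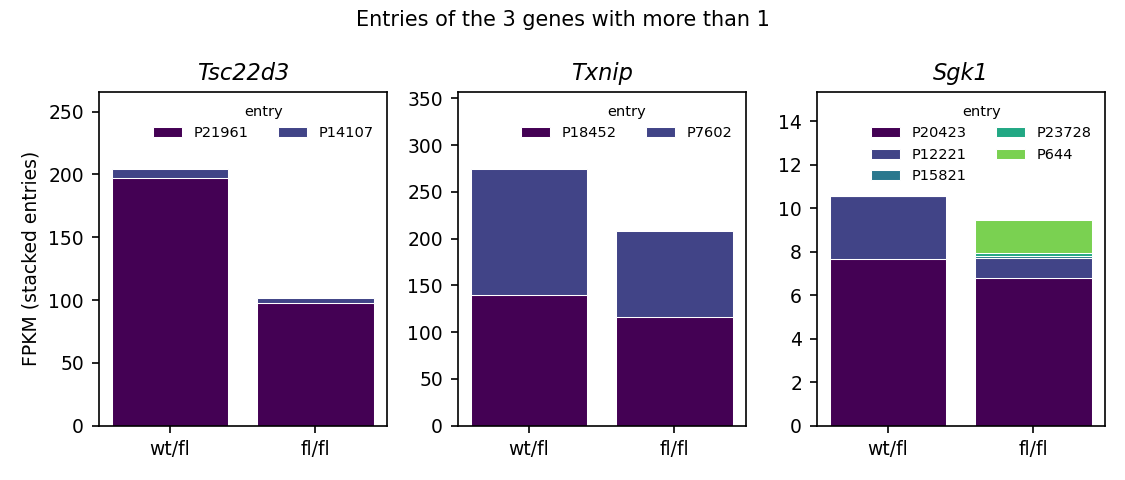
FPKM of each entry (stacked bars from 0) in wt/fl and fl/fl for Tsc22d3, Txnip and Sgk1, the 3 genes with more than 1 entry, each bar 1 pooled value without an error. Tsc22d3 is nearly all 1 entry (96.5% in wt/fl), Txnip divides evenly, and in Sgk1 entry P12221 shrinks from 2.93 to 0.917 FPKM while P644 appears at 1.504 FPKM.

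Il7r (chromosome 15 from 9435913 to 9459631, a single entry) encodes the chain shared by the receptors for IL-7 and TSLP, which B cells carry at early stages and T cells at most stages. It was the lowest of the 8 genes, at 1.23 FPKM in wt/fl against 0.896 in fl/fl, a log2 ratio of -0.23. Markers of T cells were also low, with Cd3e at 1.83 and 1.96 FPKM, Cd3d at 3.02 and 2.31 FPKM and Cd3g at 1.96 and 1.26 FPKM. The summed level of the 10 other compared T cell genes was 218 FPKM in wt/fl against 205 in fl/fl, of which Cd2, which B cells also express, made up 188 and 176 FPKM. Of these 10 genes 0 were called lower and 1 was called higher, beside 1.53% and 0.791% of all compared genes. Among 10 other genes of early B cells, the recombinase gene Rag1 was listed at 0 in wt/fl and was at 0.0263 FPKM in fl/fl, and the surrogate light chain gene Igll1 was listed at 0 in both. The related Vpreb3, in contrast, was at 318 and 314 FPKM and the AA4.1 antigen gene Cd93 at 3.28 and 4.23 FPKM, and these were the only 2 of the 10 that were compared. The part of T cells in the Il7r value was not tested. Il7r's partner chain gene Il2rg, which many cytokine receptors share, was at 330 and 345 FPKM, and the TSLP receptor gene Crlf2 at 7.78 and 9.28 FPKM. Of 9 other compared genes of this pathway 0 were called, among them the survival gene Mcl1 (307 and 324 FPKM) and the kinase gene Jak1 (140 and 148 FPKM).

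Of 40 other genes that glucocorticoids are known to induce, 27 were compared, 3 were called lower and 0 higher, where 1.53% of all compared genes were called lower. Their median log2 ratio was -0.12 beside 0.0026 over all compared genes. A ratio below 0 was found for 15 and above 0 for 12, where 49.5% of all compared genes were below 0. The 3 were Cxcr4, the CXCL12 receptor gene (113 and 39.7 FPKM, log2 ratio -1.49), Zfp36l2, an mRNA decay factor gene (172 and 86.9 FPKM, -0.98), and Dusp1, a MAP kinase phosphatase gene (15.3 and 8.12 FPKM, -0.84). The values of these 3 were known when the list was written. The most abundant genes of the list, Btg1, an antiproliferative gene (369 and 315 FPKM), and Zfp36, a further mRNA decay factor gene (336 and 348 FPKM), were called in neither direction. The clock gene Per1, a classical receptor target, was at 10.2 and 10.4 FPKM, and the NF-kB inhibitor gene Nfkbia at 48.8 and 58.9 FPKM. The metallothionein gene Mt1 was at 1.60 and 2.68 FPKM, and Anxa1, an anti-inflammatory annexin gene, at 12.1 and 16.4 FPKM. On the lower side and likewise not called were the PI3K inhibitor gene Pik3ip1 (log2 ratio -0.57), the death gene Bcl2l11 (-0.39), Sesn1 (-0.35), the G protein regulator gene Rgs2 (-0.30), the glutamine synthetase gene Glul (-0.29) and the antiproliferative gene Btg2 (-0.29). Genes above 0 and not called also included Ndrg1 (log2 ratio 0.33), Birc3 (0.31) and Bcl6 (0.30). The targets Klf9 (0.521 and 0.676 FPKM) and Zbtb16 (0.0439 and 0.0165 FPKM) were below the level that was compared.

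Of 20 inflammatory genes that glucocorticoids are known to repress, 8 were compared, 3 were called lower and 2 higher, where 1.53% of all compared genes were called lower and 0.791% higher. The 2 called higher were the cytokine genes Tnf (12.4 FPKM in wt/fl against 22.3 in fl/fl, log2 ratio 0.80) and Lta (39.2 and 62.9 FPKM, 0.67), which lie side by side in the genome. The 3 called lower were Ccl3, a chemokine gene (1.74 and 0.325 FPKM, log2 ratio -1.05), Il1b, the gene of interleukin-1 beta (3.50 and 1.89 FPKM, -0.64), and Ccl5, a chemokine gene (30.2 and 19.5 FPKM, -0.61). The adhesion gene Icam1 was at 22.0 and 21.3 FPKM. The part of neutrophils and other cell types in the values of these genes was not tested.

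**Figure D4:**
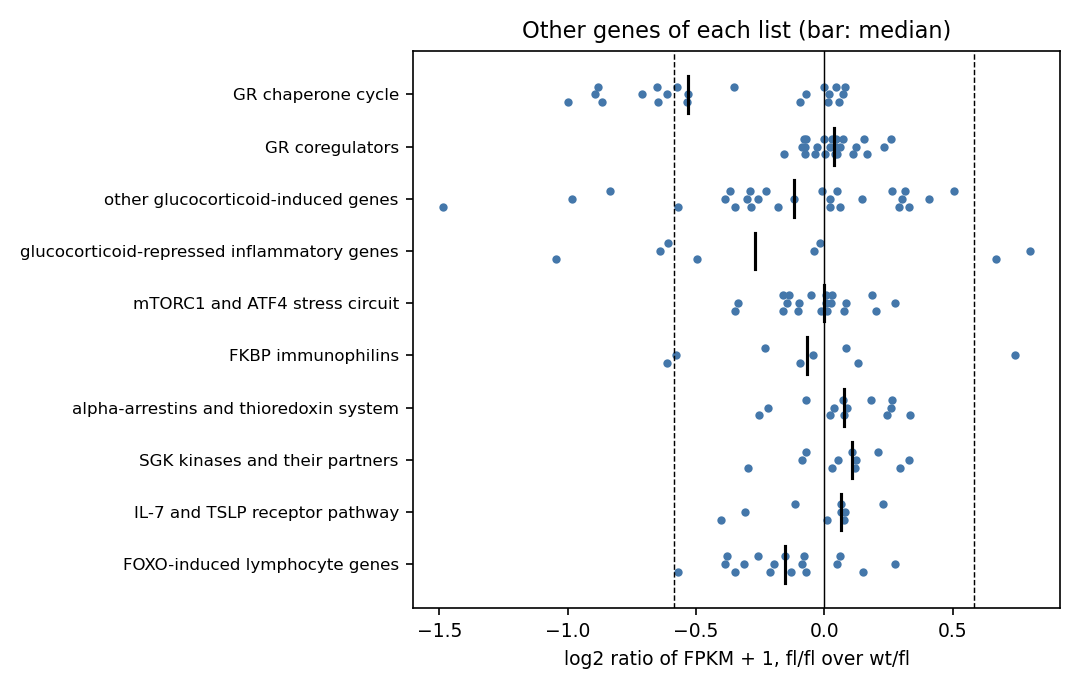
Log2 ratio of FPKM + 1 (fl/fl over wt/fl) of the compared genes of 10 lists, without the 8 listed genes, 1 point a gene, with a bar at each list's median and dashed lines at 1.5-fold. The chaperone cycle has a median of -0.53 and the coregulators one of 0.036, and the glucocorticoid-repressed genes spread from -1.05 to 0.80.

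Markers of neutrophils moved with genotype in the same pooled samples. Of 9 compared neutrophil genes 7 were called lower in fl/fl and 0 higher, where 1.53% of all compared genes were called lower. Over the 12 found in the table the summed level was 386 FPKM in wt/fl against 73.1 in fl/fl. The 7 were the calprotectin genes S100a9 (175 and 34.5 FPKM) and S100a8 (145 and 25.8 FPKM), the granule protein genes Camp (15.3 and 1.70 FPKM), Ngp (13.4 and 1.29 FPKM), Lcn2 (12.6 and 1.21 FPKM) and Ltf (2.31 and 0.118 FPKM), and Retnlg (13.0 and 1.88 FPKM). Compared but not called were Cxcr2 (5.99 and 4.96 FPKM, log2 ratio -0.23) and Csf3r (2.32 and 1.51 FPKM, -0.41). The granule enzyme genes Elane and Mpo were at 0.119 and 0.0916 FPKM in wt/fl and listed at 0 in fl/fl. The part of such cells in the levels of the 8 genes, and of the genes of the other lists, was not tested.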

How the data were processed

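RNA of follicular B cells was amplified, made into libraries and sequenced from 3 wt/fl and 3 fl/fl samples. FPKM values were computed by the authors with 1 value per genotype for each entry, pooled over its 3 samples. The submitters' processing notes name Bowtie, TopHat and Cufflinks, and the layout of the table is that of Cuffdiff. Versions and options are not given in the sources used here. The notes name mm10, but 0 of the 8 genes overlap their GENCODE M21 position on GRCm38, so positions were taken as mm9 and never mixed with those of the reference. The table also holds the authors' own log2 fold changes, test statistics, p-values and q-values, which were not used. Of 25017 entries, 44 carried a date in place of a symbol (25 names) and were left out.

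FPKM was summed per gene name, and log2((fl/fl + 1) / (wt/fl + 1)) was computed with pandas 2.3.3 and numpy 2.4.6 and tested on simulated data. Genes whose mean reached 1 FPKM were compared and called at 1.5-fold. No model across samples could be fitted to 1 value per genotype. The 8 genes and the 19 gene lists were chosen with earlier results of these data known, so counts over them are a description. The rule for named genes was the 8, Myh9, and in each list its 3 most abundant compared genes and those called, with some exceptions that are counted but not named. Further genes of a list were named after their values were seen, for their role or their place in the list. All other listed genes are only counted. Promoter letters came from RefSeq windows of 300 bases (250 before and 50 after a start).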

Additional observations from a re-analysis of the deposited data

How the results depend on the processing

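No paired analysis was possible because the values are pooled per genotype, and for the same reason no sample could be left out in turn. Some settings could change a ratio: pseudocounts of 0.1 and 0.5, equal upper quartiles, and a median log2 ratio set to 0. Using the entry with the highest mean FPKM alone could do so as well. Under these settings Tsc22d3 and Ddit4 stayed the 2 called genes of the 8. No log2 ratio of the 8 genes changed its sign or its side of 1.5-fold. The log2 ratio of Txnip was -0.40 for the gene and -0.26 for its highest entry alone. Dropping the filter on FPKM, or asking for a mean of at least 5 FPKM, cannot change a ratio. Their only effect on the 8 genes was that Il7r was not compared at 5 FPKM. The fold used for the call decided most. At 2-fold 1 of the 8 genes was called lower, Ddit4 (Tsc22d3, at -0.996, fell just short). A looser call asked only that the higher value, with 1 added to each, exceed the lower by 25%. Under this looser call 4 of the 8 genes were called lower, with Nr3c1 and Txnip among them. Of all compared genes, 541 were then called lower and 454 higher, against 151 and 78 at 1.5-fold. At 2-fold 40 of all compared genes were called lower and 9 higher. With a pseudocount of 0.1 the counts over all compared genes at 1.5-fold were 256 lower and 158 higher. With a pseudocount of 0.5 they were 198 and 110. For the chaperone cycle 0 genes were called lower at 2-fold. For the other induced genes, 1 was called lower at 2-fold, 7 under the looser call and 5 with a pseudocount of 0.1. Of the same genes 3 were called higher under the looser call and 1, Mt1, with a pseudocount of 0.1 or 0.5. With the highest entry alone 1 coregulator was called lower, Smarca4, which has 3 entries. Depth per sample is unknown, so the precision of low values such as those of Il7r and of the Sgk1 entries cannot be given.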

Other observations

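Genes that FOXO transcription factors are known to induce in lymphocytes overlap the listed genes in Txnip, Ddit4 and Il7r. Of the 17 other compared genes of that list 0 were called at 1.5-fold in either direction, beside 1.53% lower and 0.791% higher over all compared genes. A log2 ratio below 0 was found for 13 and above 0 for 4, where 49.5% of all compared genes were below 0. The median of the 17 was -0.15 beside 0.0026 over all compared genes. The homing receptor genes S1pr1 (98.0 FPKM in wt/fl against 75.2 in fl/fl) and Ccr7 (146 and 118 FPKM) and the PI3K inhibitor gene Pik3ip1 (28.2 and 18.7 FPKM) lay on the lower side, as did the transcription factor gene Klf2 (140 and 126 FPKM). Foxo1 itself was at 102 and 88.5 FPKM and Foxo3 at 23.6 and 22.2 FPKM. The death gene Bcl2l11, on this list and on that of induced genes, was at 26.6 and 20.1 FPKM summed over 3 entries, while its largest entry was at 14.7 and 3.58 FPKM and the other 2 at 5.73 and 8.52 FPKM and at 6.13 and 7.97 FPKM. Bcl2l11 was singled out after its values were seen.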
